A study of Mus musculus with 4 samples.

Results

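Of the 22722 gene symbols in the count tables, 10 were examined that encode surface proteins by which plasma cells hold to bone marrow stroma and find their way to it: the syndecans Sdc1 and Sdc4, the integrin subunits Itga4, Itgb1 and Itgb7, the chemokine receptor Cxcr4, the hyaluronan receptor Cd44, and the surface receptors Cd38, Slamf7 and Cd28. They were chosen by symbol, and all 10 had enough counts to be among the 11027 genes tested. The cells were MPC11, a mouse plasmacytoma line that secretes immunoglobulin, grown in RPMI with serum. All 4 cultures received a pLKO.1 lentivirus and puromycin: 2 carried a hairpin against GFP (shGFP, the control), and 2 carried 1 hairpin against Ell2, 1C7 (Ell2-KD), a gene that encodes an elongation factor of RNA polymerase II. Virus was removed after 18 h, selection lasted 72 h and expansion a further 72 h. Per the labels' protocols, Ell2 transcript and the ratio of membrane to secretory immunoglobulin were measured before sequencing as a check of the cultures. A single hairpin per target means that effects of Ell2 loss and of that hairpin's sequence cannot be told apart.

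Syndecans are membrane proteoglycans whose heparan sulfate chains bind growth factors, cytokines and matrix. Syndecan-1 (CD138) is the standard surface marker of plasma cells. The alpha 4 integrin subunit pairs with beta 1 to form VLA-4, which binds VCAM-1 and fibronectin on marrow stroma, or with beta 7 to form LPAM-1, which binds MAdCAM-1 on gut vessels. CXCR4 is the receptor for CXCL12, the chemokine that draws plasma cells to the marrow and switches integrins to their binding state.

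Library totals ran from 3496471 to 13914488 counts, and both extremes were Ell2-KD libraries (replicate 2 and replicate 1). The 2 Ell2-KD libraries, the deepest and the shallowest, did not group together across tested genes. Their log2 CPM correlated at 0.88, below the 0.92 of each with the shGFP library of its own number. The 2 shGFP libraries also correlated with each other at 0.92. Ell2 fell from 938 and 996 CPM (counts relative to the library total, after TMM scaling) in shGFP to 87.8 and 115 in Ell2-KD libraries, or by 3.25 ± 0.23 (SE) on the log2 scale (edgeR adjusted p = 0.00032). The 9 plasma cell markers looked for, Ell2 itself included, were all tested and summed to 21785 CPM of the library total in shGFP replicate 1, 16960 in shGFP replicate 2, 17173 in Ell2-KD replicate 1 and 13605 in Ell2-KD replicate 2. All 9 had a negative log2 change, on the same side as Sdc1, where 50.1% of all tested genes did. Ell2, the target of the hairpin, alone passed edgeR, and the markers were named after their values were seen. Xbp1 (-0.05) and Mzb1 (listed as 2010001M09Rik, -0.12) were close to 0. Irf4 had -0.28, the J chain gene Igj -0.29, Prdm1 -0.39 and the coactivator gene Pou2af1 -0.89. The ER isomerase gene Fkbp11 had -1.50 and Tnfrsf17 (BCMA) -4.56, the latter from 159, 126, 18 and 1 counts. Of the B cell markers, Pax5 had 30 counts in shGFP replicate 1 and at most 1 elsewhere, while Ms4a1 and Cd79b carried most of the B cell sum, which was 1424 and 1387 CPM in shGFP libraries against 1961 and 1820 in Ell2-KD libraries. Ms4a1 (CD20) stood at 378 and 348 against 836 and 941 CPM (log2 change 1.29; edgeR adjusted p = 0.086), on the same side as Sdc4, and Cd79b at 1013 and 1035 against 1082 and 903. T and NK cell markers, which bear on Cd28, summed to 2.88 and 6.88 CPM in shGFP replicates 1 and 2 and to 1.15 and 7.15 in Ell2-KD replicates 1 and 2. Cd28 itself stood at 6.68 and 6.35 CPM in shGFP and at 7.31 and 5.56 in Ell2-KD libraries. Cd4 had 13 counts in shGFP replicate 1, and Cd3g had at most 8 and Cd3e at most 6 in any library. Myeloid markers summed to 8.77 to 37.5 CPM. Among them, Cd68 stood at 11.6 and 6.15 CPM in shGFP replicates 1 and 2 and at 3.62 and 31.6 in Ell2-KD replicates 1 and 2. Itgam had at most 47 counts in any library, and S100a8 had no count. The stromal and epithelial sum of 790 to 907 CPM came almost wholly from Epcam and Pecam1. The part of these marker sums in the results below was not tested. In RNA from whole cultures, fewer cells with a transcript and less of it per cell cannot be told apart.

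At baseline the 10 genes spanned a 151-fold range of level. Levels of different genes were compared as CPM per kb of their main annotated transcript, or of all exons where none is marked. For Cd44 and Slamf7 the length used equalled that of all exons. Their levels per kb would be higher if their main transcript is shorter. In the controls Sdc1 stood highest, at 227 ± 30.4 CPM per kb (SD, n = 2), with Cxcr4 at 208 ± 61.2, and the libraries of these 2 genes overlapped. With the length of all exons in place of the main transcript, a comparison added after seeing the data, Cxcr4 (208 CPM per kb) stood above Sdc1 (188). Itgb1 at 114 ± 16.2, Sdc4 at 97.1 ± 15.2 and Cd44 at 92.9 ± 5.81 CPM per kb came next, each overlapping its neighbour. Slamf7 at 30.9 ± 4.89 and Itgb7 at 26.1 ± 7.92 CPM per kb overlapped each other and lay below Cd44. Itga4 at 8.29 ± 3.40, Cd38 at 2.26 and 4.25 in its 2 libraries and Cd28 at 1.50 ± 0.05 CPM per kb followed, with no overlap between neighbours. In the depleted cells Sdc4 stood highest, at 191 ± 19.7 CPM per kb, with both libraries above all those of the other 9 genes. Cxcr4 at 144 ± 1.56, Sdc1 at 131 ± 29.2 and Itgb1 at 129 ± 13.7 CPM per kb followed, with Sdc1 overlapping the other two. Itgb7 (32.9 ± 2.16) then stood above Slamf7 (26.0 ± 4.60), and Cd38 (6.24 ± 1.36) above Itga4 (2.91 ± 1.11), in CPM per kb, with no overlap within either pair, the reverse of their order of means in the controls.

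**Figure D1:**
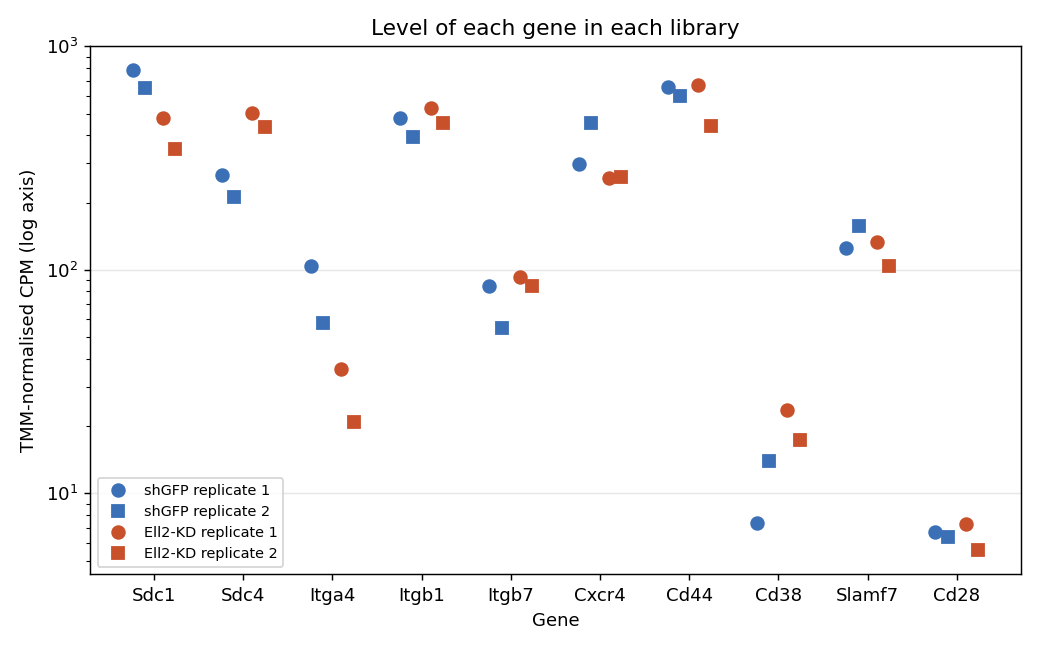
TMM-normalised CPM (log axis) of the 10 genes in each library, with shGFP in blue, Ell2-KD in orange, circles for replicate 1 and squares for replicate 2. The groups are apart for Sdc1, Sdc4, Itga4, Cxcr4 and Cd38 and overlap for the other 5 genes.

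No gene of the 10 passed the test between groups over all genes (edgeR quasi-likelihood, Benjamini-Hochberg adjusted p under 0.05), where 0.0453% of all tested genes did. At an unadjusted p under 0.05 the edgeR test gave 3 of the 10 (Sdc4, Itga4 and Sdc1) against 5.82% of all tested genes. DESeq2 called 1 of the 10, Sdc4, where it called 0.39% of all genes, and limma-voom called 0 where it called 0.0363%. In 5 of the 10 genes the 2 groups did not overlap, with Ell2-KD above in 2 and below in 3. Over all tested genes such a separation held for 35.8%, with 17.4% above and 18.5% below. The 10 genes were chosen with earlier results of these libraries known, so these counts are a description. Of the 10, 6 had a negative log2 change, against 50.1% of all tested genes, and the median was -0.10 against -0.00 over all genes. The sign of that median was not stable: it was 0.11 between replicates numbered 1 and -0.32 between those numbered 2, and 0.13 without Ell2-KD replicate 2 against -0.33 without Ell2-KD replicate 1. The median size without regard to sign was 0.44 on the log2 scale, against 0.33 over all tested genes. Whether the replicate cultures came from separate transductions is not stated in the labels, so the p-values cover only the spread among these 4 samples.

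**Figure D2:**
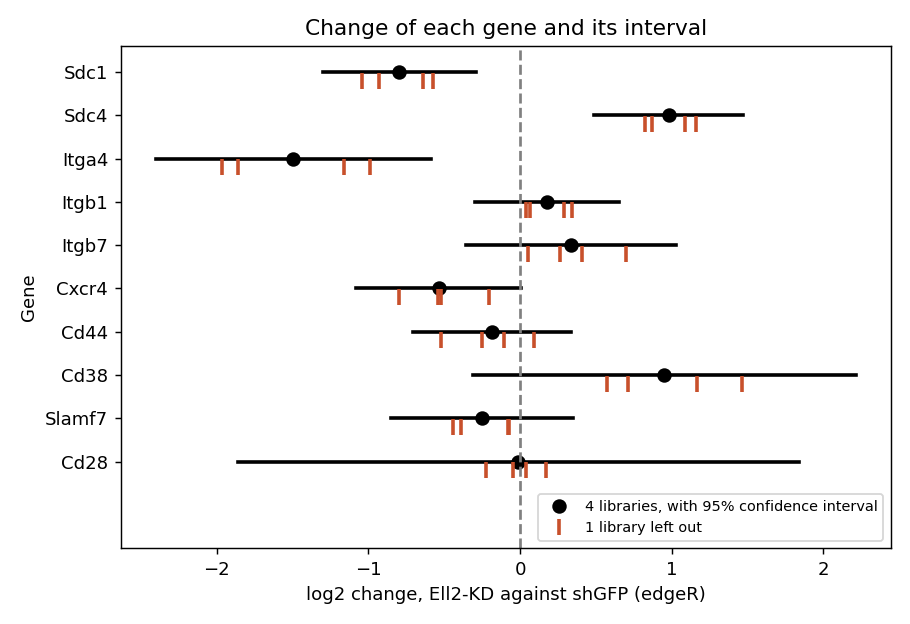
log2 change between Ell2-KD and shGFP for each of the 10 genes from edgeR, with the 95% confidence interval before any adjustment (black), and the value when each library is left out in turn (orange ticks). Only the intervals of Sdc1, Sdc4 and Itga4 lie wholly on 1 side of 0, at centres of -0.79, 0.98 and -1.50.

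The syndecans lay on opposite sides of their controls. Sdc1 stood at 784 and 648 CPM in shGFP replicates 1 and 2 and at 478 and 347 CPM in Ell2-KD replicates 1 and 2. Both depleted libraries were lower than both controls, by a log2 change of -0.79 ± 0.23 (SE; 95% confidence interval -1.30 to -0.29; edgeR adjusted p = 0.58). Sdc4, the widely expressed syndecan of focal adhesions, stood at 265 and 212 CPM in shGFP cells and at 505 and 436 CPM in depleted libraries. Both depleted libraries were higher than both controls, with a log2 change of 0.98 ± 0.22 (SE; interval 0.49 to 1.47; edgeR adjusted p = 0.42). This was the smallest p of the 10 genes, rank 30 among all genes tested. The call for Sdc4 turned on the method and on 1 library: its adjusted p was 0.042 by DESeq2 and 0.024 by edgeR without Ell2-KD replicate 2, a setting that called 0.688% of all genes. Sdc1 passed without Ell2-KD replicate 1 (edgeR adjusted p = 0.039), a setting that called 1.24%. Neither gene changed direction when any 1 library was left out, with log2 changes from -1.04 to -0.58 for Sdc1 and from 0.83 to 1.16 for Sdc4.

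The ratio of Sdc1 to Sdc4 within a library needs no scaling between libraries. There were 2.96 and 3.06 counts of Sdc1 per count of Sdc4 in the shGFP libraries, but 0.95 and 0.80 in the Ell2-KD libraries (replicate 1 first). Per kb of transcript the ratio was 2.34 ± 0.05 (SD, n = 2) in control libraries and 0.68 ± 0.08 (SD, n = 2) in depleted libraries, so that Sdc1 was the more abundant of the pair in both controls and Sdc4 in both depleted libraries. The summed level of the pair was 356 and 292 CPM per kb in control libraries and 357 and 288 CPM per kb in depleted libraries. Ratio and sum were looked at after the values of both genes had been seen, and with 2 libraries against 2 an exact permutation test cannot give a two-sided p below 0.333.

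**Figure D3:**
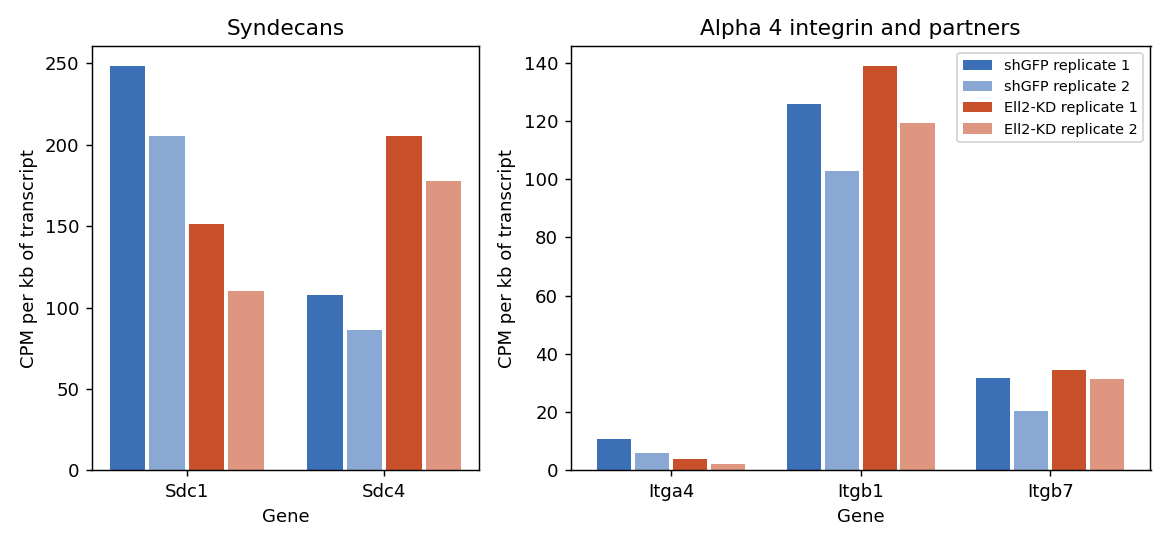
CPM per kb of transcript in each library for the 2 syndecans (left) and for the alpha 4 integrin subunit with its beta partners (right); each bar is 1 library. Sdc1 bars are above Sdc4 bars in both controls (248 and 205 against 108 and 86.3) and below them in both depleted libraries (151 and 110 against 205 and 177), and Itga4 bars are lowest in the right panel in all 4 libraries.

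The sequences before the start sites of these 2 syndecan genes are shown because the pair differed in direction. Each line gives the 250 bases before the RefSeq start on build GRCm38.p6, 5′ to 3′ on the gene's strand, with capitals marking each GC box (GGGCGG) and CCAAT box (CCAAT) on either strand. They come from the reference genome, not from MPC11 cells.
Sdc1, chr12:8771146-8771395, plus strand: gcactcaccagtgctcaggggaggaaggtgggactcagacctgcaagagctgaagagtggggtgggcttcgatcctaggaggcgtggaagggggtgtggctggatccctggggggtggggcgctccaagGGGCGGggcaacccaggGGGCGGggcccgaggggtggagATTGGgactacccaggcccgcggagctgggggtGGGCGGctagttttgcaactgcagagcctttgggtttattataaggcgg
Sdc4, chr2:164443189-164443438, minus strand: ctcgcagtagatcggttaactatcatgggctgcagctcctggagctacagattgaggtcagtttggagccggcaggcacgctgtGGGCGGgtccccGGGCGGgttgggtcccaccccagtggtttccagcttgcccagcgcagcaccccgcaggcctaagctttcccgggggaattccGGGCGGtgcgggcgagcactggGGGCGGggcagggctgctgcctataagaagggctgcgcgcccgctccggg
The Sdc1 window held 3 GC boxes and 1 CCAAT box, and the Sdc4 window held 4 GC boxes and 0 CCAAT boxes. The exact letters TATAAA were in neither window on either strand, though each holds TATAAG near its end. Among 32851 windows of this length in the table, 32.7% held a GC box, 33.8% a CCAAT box and 12.4% TATAAA. Of the 10 genes, 9 had an entry. Itga4 and Itgb1 had 1 GC box each, Cxcr4 had 3, and Itgb7, Cd38, Slamf7 and Cd44 had 0. Cxcr4 also held 2 matches of TATAAA. The G and C content ran from 38.0% (Slamf7) to 68.0% (Sdc4 and Itgb1). Such matches describe letters and are not shown to be bound sites.

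Genes around the syndecans did not pass in either direction. Of 34 genes for other proteoglycan cores and for making, trimming and tethering heparan sulfate chains, 23 were tested, 13 with a positive and 10 with a negative log2 change (median 0.07), and 0 passed edgeR. Extl2 and Ext2, glycosyltransferases of the exostosin family, were the most abundant per kb, at 69.3 against 74.0 and 41.6 against 44.8 CPM per kb in controls against depleted cells. Extl1, of the same family, had 93 and 43 counts in control libraries and 30 and 2 in depleted libraries (log2 change -2.74 ± 1.03, SE; edgeR adjusted p = 0.78). Hs6st1, which adds sulfate to the chains, stood at 52.6 and 38.5 CPM in controls and at 57.4 and 89.3 in depleted cells.

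The alpha 4 integrin gene had the largest log2 change of the 10, and the intervals of its beta partners spanned 0. Itga4 stood at 104 and 57.5 CPM in shGFP replicates 1 and 2 and at 36.1 and 20.8 CPM in Ell2-KD replicates 1 and 2, from 876, 290, 509 and 71 counts. Both depleted libraries lay below both controls, though the 2 controls themselves differed 1.82-fold. The log2 change was -1.50 ± 0.41 (SE; interval -2.40 to -0.59; edgeR adjusted p = 0.54), with -1.53 between the replicates numbered 1 and -1.46 between those numbered 2. With 1 library left out, the log2 change was largest in size, -1.97, without Ell2-KD replicate 1. It was smallest in size, -0.99, without shGFP replicate 1. The adjusted p of Itga4 did not stay above the threshold in every such fit. Each of these fits leaves a group with a single library, so no call is drawn from them. The same limit applies to the calls of Sdc1 and Sdc4 with 1 library left out. Exons of Itga4 overlap those of Cerkl, a ceramide kinase-like gene on the other strand, over 1124 bases in GENCODE M21, and the strand setting of the counts is not given in the sources used here. Cerkl was counted at 6.20 and 19.2 CPM in control libraries and 23.8 and 6.44 in depleted libraries, with overlapping groups.

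Itgb1, the beta 1 subunit, stood at 479 and 392 CPM in controls and at 529 and 455 in depleted cells. The groups overlapped, and the log2 change of 0.18 ± 0.21 (SE) had an interval of -0.30 to 0.65. Itgb7 stood at 85.0 and 55.0 CPM in controls and at 92.5 and 84.3 in depleted cells, again overlapping (log2 change 0.34 ± 0.31, SE; interval -0.36 to 1.03). The edgeR adjusted p was 0.99 for Itgb1 and 0.97 for Itgb7. Within libraries, there were 0.22 and 0.15 counts of Itga4 per count of Itgb1 in the shGFP libraries, but 0.07 and 0.05 in the Ell2-KD libraries (replicate 1 first). Against Itgb7 the corresponding count ratios were 1.23 and 1.05 in controls and 0.39 and 0.25 in depleted cells. Per kb, the alpha 4 transcript was less abundant than either beta partner in all 4 libraries. The ratio of Itgb1 to Itgb7 counts overlapped between groups, at 5.64 and 7.13 against 5.72 and 5.40.

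Other integrin subunits were described from a list of 23, of which 14 were tested, 9 with a positive and 5 with a negative log2 change (median 0.59, with 0.36 between replicates numbered 1 and 0.04 between those numbered 2). None passed edgeR, and 3 had an unadjusted p under 0.05, all with positive changes, against 2.57% of all tested genes. Itgb5 and Itgal, the alpha chain of LFA-1, were the most abundant per kb, at 76.8 against 71.2 and 22.9 against 24.1 CPM per kb. Itgb2, the beta chain of LFA-1, stood at 23.7 and 16.3 CPM in controls and at 44.6 and 50.9 in depleted cells (log2 change 1.25 ± 0.41, SE; edgeR adjusted p = 0.70). Itga2b, the platelet integrin alpha IIb, had 43 and 8 counts in controls and 194 and 72 in depleted cells (edgeR adjusted p = 0.70).

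Of 45 genes that activate integrins or link them to actin, 40 were tested, 25 with a positive and 15 with a negative change (median 0.16), and 0 passed edgeR. Msn, which encodes moesin, a linker of membrane proteins such as CD44 to actin, was the most abundant per kb and stood at 649 and 531 CPM in controls and 968 and 718 in depleted cells. Its log2 change was 0.51 ± 0.22 (SE; edgeR adjusted p = 0.83). Slc3a2, the CD98 heavy chain that associates with beta 1 integrins, was next, at 120 against 107 CPM per kb. Vav1, an exchange factor for Rac, stood at 161 and 178 CPM in controls and 212 and 305 in depleted cells. Src, the kinase gene, had 1 and 0 counts in controls and 96 and 7 in depleted cells (edgeR adjusted p = 0.68).

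Cxcr4 stood at 298 and 454 CPM in shGFP replicates 1 and 2 and at 257 and 261 in Ell2-KD replicates 1 and 2. The depleted libraries were both lower and nearly equal, while the controls differed from each other by more than the lower control did from them. The log2 change was -0.54 ± 0.25 (SE; interval -1.08 to 0.01; edgeR adjusted p = 0.86), and its size rested on 1 control, since it was -0.20 without shGFP replicate 2 and -0.80 without shGFP replicate 1. Other chemokine and homing receptors were scarce: of 25 looked for, 4 were tested and 0 passed edgeR. Selplg, the selectin ligand PSGL-1, stood at 100.5 ± 1.23 CPM (SD, n = 2) in controls and 103 ± 27.7 in depleted cells. Ccr10, the CCL27 and CCL28 receptor that guides IgA plasma cells, had 96 and 49 counts in controls and 81 and 45 in depleted cells. S1pr2, a sphingosine 1-phosphate receptor, had 66 and 41 counts against 215 and 25.

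Of 27 genes that transmit, end or regulate CXCR4 signals, 19 were tested, 11 with a positive and 8 with a negative change (median 0.04), and 0 passed edgeR. The G protein genes Gnb1 and Gnai3 were the most abundant per kb, at 116 against 113 and 82.3 against 99.0 CPM per kb. Foxo1, a transcription factor, stood at 76.7 and 86.3 CPM in controls and 133 and 152 in depleted cells (log2 change 0.81 ± 0.27, SE; edgeR adjusted p = 0.71). Elmo1, a partner of DOCK proteins in Rac activation, stood at 36.7 and 42.7 against 57.9 and 79.9 CPM. Both genes had separate groups with the depleted cells above, but they were named for the smallest p of this list. Of the 19 tested, 5 had separate groups with the depleted cells above and 1 below. Over all tested genes the shares were 17.4% above and 18.5% below.

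Cd44, the hyaluronan receptor, stood at 658 and 602 CPM in controls and at 668 and 439 in depleted cells. The groups overlapped, with Ell2-KD replicate 2 lowest, and the log2 change of -0.19 ± 0.24 (SE) had an interval of -0.70 to 0.33. Without Ell2-KD replicate 2 it was 0.09. By its mean over all 4 libraries Cd44 was above 98.1% of all tested genes in CPM, which takes no account of transcript length. Per kb, Cd44 lay below Sdc1 in all 4 libraries, with the length of all exons for Cd44 and of the main transcript for Sdc1. The means were 92.9 against 227 CPM per kb in shGFP and 81.7 against 131 in Ell2-KD. With the length of all exons for both genes, they were 92.9 against 188 in shGFP and 81.7 against 108 in Ell2-KD. In CPM, Cd44 stood above Sdc1 in both Ell2-KD libraries (668 and 439 against 478 and 347) and below it in both controls.

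Cd38, an ectoenzyme that consumes NAD and makes cyclic ADP-ribose, stood at 7.39 and 13.9 CPM in controls and at 23.6 and 17.3 in depleted cells. It rests on 62, 70, 332 and 59 counts, and both depleted libraries lay above both controls. The log2 change was 0.95 ± 0.57 (SE; interval -0.31 to 2.21; edgeR adjusted p = 0.91), with 1.64 between replicates numbered 1 and 0.31 between those numbered 2. It ranged from 0.57 without shGFP replicate 1 to 1.47 without shGFP replicate 2.

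Slamf7, the self-binding receptor CS1 of plasma cells and NK cells, stood at 126 and 157 CPM in controls and at 134 and 104 in depleted cells. The groups overlapped, and the log2 change of -0.25 ± 0.27 (SE) had an interval of -0.85 to 0.35. An antisense transcript overlaps its exons over 423 bases in GENCODE M21. Of 15 other SLAM family receptors and adaptors, 9 were tested, 5 positive and 4 negative (median 0.05), and 0 passed edgeR. Cd48, a ligand of the family, stood at 75.3 CPM per kb in controls and 70.6 in depleted cells. It was above Slamf7 on that scale, where the length of all exons was used for Slamf7. In CPM the order of means was the reverse, with Slamf7 at 142 against 89.3 for Cd48 in controls and 119 against 83.7 in depleted cells. Slamf9 stood at 44.8 against 36.9 CPM per kb, with 1050 counts in Ell2-KD replicate 1 and 77 in replicate 2. Ptpn6, the phosphatase SHP-1, had 89 and 41 counts in controls and 28 and 5 in depleted cells (edgeR adjusted p = 0.81), while Inpp5d, the lipid phosphatase SHIP-1, stood at 108 ± 16.9 against 157 ± 17.7 CPM (SD, n = 2).

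Cd28, a costimulatory receptor of T cells that also sustains plasma cells, was the lowest of the 10, at 6.68 and 6.35 CPM in controls and 7.31 and 5.56 in depleted cells. These rest on 56, 32, 103 and 19 counts, and the groups overlapped. The log2 change of -0.01 ± 0.84 (SE) had an interval of -1.86 to 1.84, the widest of the 10. Of 15 genes for its relatives, ligands and signalling partners, 7 were tested, 5 positive and 2 negative (median 0.52), and 0 passed edgeR. Cd274, the checkpoint ligand PD-L1, stood at 89.8 and 125 CPM in controls and 130 and 196 in depleted cells (edgeR adjusted p = 0.87). Grb2, an adaptor, and Pik3r1, the regulatory subunit of PI 3-kinase, stood at 30.8 against 45.2 and 69.4 against 99.5 mean CPM.

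Among 30 other adhesion and tetraspanin surface genes, 22 were tested, 11 positive and 11 negative (median -0.04), and 0 passed edgeR. Bsg, the immunoglobulin superfamily protein basigin, was the most abundant per kb, at 462 CPM per kb in controls and 426 in depleted cells. Cd47, the receptor that signals to phagocytes through SIRP alpha, stood at 353 and 401 CPM in controls and 515 and 528 in depleted cells (log2 change 0.47 ± 0.21, SE; edgeR adjusted p = 0.83). Cd24a, a glycosylphosphatidylinositol-anchored protein of early B cells, stood at 28.6 and 35.1 against 86.4 and 123 CPM (log2 change 1.72 ± 0.33, SE; edgeR adjusted p = 0.26). Alcam, an adhesion molecule that binds CD6, stood at 160 and 146 against 83.5 and 111 CPM (log2 change -0.66 ± 0.27, SE; edgeR adjusted p = 0.82).

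**Figure D4:**
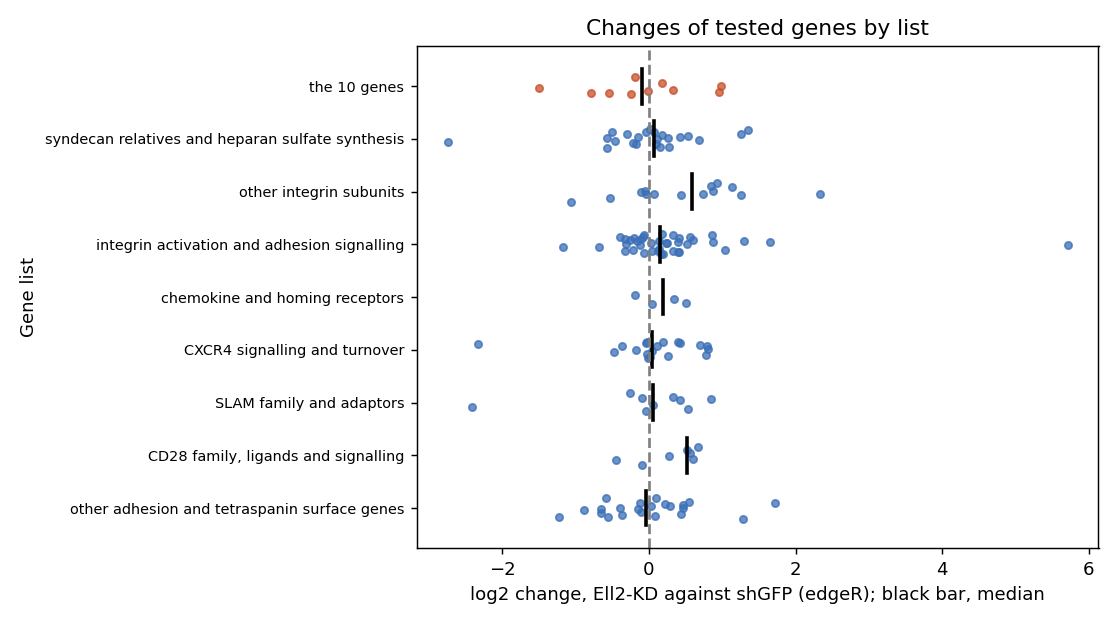
edgeR log2 change of each tested gene in the 8 lists of related genes (blue) and of the 10 genes (orange), 1 point a gene, spread vertically only to separate points; black bars are medians. Medians run from -0.10 for the 10 genes to 0.59 for other integrin subunits, and the point beyond 5 is Src, which had 1 count in the controls.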

How the data were processed

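RNA of 4 MPC11 cultures was sequenced on SOLiD, per the labels' protocols. Each library has a table of raw read counts by gene symbol, as deposited by the authors. The submitters' processing notes list HTSeq 0.5.3, SAMtools 0.1.11, DESeq 1.4.1 and the mouse build mm9. The strand setting was not given in the sources used here, nor were the aligner and annotation. Counts were tested with edgeR 4.0.16 in R 4.3.3: filterByExpr (minimum count 10, total 15), TMM scaling, robust quasi-likelihood test with group as the only term, over all 4 libraries, adjusted over 11027 genes at a threshold of 0.05. The script was tested on simulated data. SE is the log2 change divided by the square root of F. The common biological coefficient of variation was 0.43. Differences between same-numbered replicates use log2 CPM with a prior count of 2. Alternatives used DESeq2 1.42.0, limma 3.58.1 (voom), other scalings and filters, a replicate block and each library left out. Transcript lengths and overlaps come from GENCODE M21 (GRCm38), a build other than mm9, so no gene coordinates are given. For lengths, 19472 symbols matched as written, 1856 matched through an older symbol and 1394 were not matched. Lengths are of the longest transcript with the top principal mark, or of all exons where none has that mark. Symbols matched through an older symbol were also given the length of all exons. The 10 genes and all lists were chosen with earlier results of these data known. From each list, the text names the 2 genes most abundant per kb and the 2 with the smallest p. Marker genes were named after their values were seen.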

Additional observations from a re-analysis of the deposited data

How the results depend on the processing

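Over 13 alternatives for each of the 10 genes and Ell2, 133 of 143 log2 changes kept their direction and side of the threshold, 5 newly passed and 5 changed sign. Ell2 passed in all 13. The sign changes were those of Cd28 (0.0569 without a low-count filter, 0.0742 by limma-voom, and -0.23 to 0.17 with 1 library left out) and of Cd44 (-0.52 to 0.0937 with 1 library left out). The count of genes called, 5 in the fit reported, was 43 by DESeq2, 22 without a low-count filter, 2 with a stricter filter (5 CPM in 2 libraries), 2 with library totals alone, 1 without robust settings, and 14 to 142 with 1 library left out, where the lone library of a group is assumed to vary like the other group. Of the 10 genes, 1 passed by DESeq2 and 0 to 2 passed with 1 library left out; the cause was not tested. The median of the 10 ran from -0.33 without Ell2-KD replicate 1 to 0.13 without Ell2-KD replicate 2.

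With the replicate number as a block, 28 genes and 1 of the 10 passed edgeR: Sdc4 at a log2 change of 0.98 ± 0.16 (SE; adjusted p = 0.036). Sdc1 and Itga4 each had an adjusted p of 0.064. The block called 0.254% of all genes. Deviations of same-numbered libraries from their group means correlated at r = 0.31 across genes, which are not independent replicates. The labels do not say that a number marks a shared culture or day. In the shallowest library, of 3496471 counts, Cd28 had 19 counts and Cd38 had 59.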

Other observations

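A pair of adhesion genes looked for among the stromal and epithelial markers were well represented in all 4 libraries. Epcam, the epithelial adhesion molecule, stood at 488 and 629 CPM in shGFP replicates 1 and 2 and at 444 and 593 CPM in Ell2-KD replicates 1 and 2. Pecam1, the endothelial and leukocyte adhesion molecule CD31, stood at 292 and 275 CPM in shGFP cells and at 405 and 289 CPM in depleted libraries. Both had overlapping groups, and neither passed edgeR, with adjusted p-values of 1.00 and 0.96. Other epithelial and endothelial markers were near 0: Krt8 had at most 6 counts, Cdh1 at most 3 and Cdh5 at most 5 in any library. These genes were picked after their values were seen.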
